A study of Homo sapiens with 6 samples.

Results

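The ABC transporters were taken as the protein-coding rows of the expression table whose symbols are ABC, a letter from A to G and a number. The rule found 45 genes among 60624 rows, of which 43 are reported here, namely 12 of subfamily ABCA, 8 of ABCB, 11 of ABCC, 3 of ABCD, 1 of ABCE, 3 of ABCF and 5 of ABCG. They were compared in SV-HUC-1, an established human urothelial line immortalised with SV40, from which 6 poly(A) RNA-seq libraries were made. In 3 of them (control) the cells had received a blank solution, and in the other 3 they had received 2,6-dichloro-1,4-benzoquinone (DCBQ), a chlorinated quinone that forms when drinking water is disinfected. Both lasted 3 days, and the labels give no concentration. The labels do not state whether replicates were separate cultures, so a p-value here sets the difference against the spread of 3 libraries a group, and that spread may be technical. A change in the RNA of each cell and a change in which cells survived cannot be told apart in bulk RNA.

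ABC proteins bind ATP in a pair of nucleotide-binding domains, and most use it to move a substrate across a membrane. The ABCA and ABCG proteins mainly carry sterols, phospholipids and retinoids, the ABCB proteins carry drugs, peptides, bile constituents and, in mitochondria, compounds tied to iron and haem, and the ABCD proteins carry acyl-CoAs into peroxisomes or cobalamin out of lysosomes. The ABCC proteins include the multidrug resistance-associated proteins, which export glutathione, glucuronide and sulfate conjugates and so complete the removal of electrophiles such as quinones. ABCE and ABCF proteins have no membrane domain and act on ribosomes.

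The values are TPM (a level scaled for gene length and library total), and the sequencing depth behind them is unknown. The library totals are fixed, so a gene's share falls when others rise. Mitochondrially encoded genes took 20.9% to 22.2% of TPM in the control libraries and 27.96% to 28.8% in the DCBQ libraries. The median tested gene differed by -0.21 (DCBQ minus control on log2(TPM + 1)) in the deposited TPM and by -0.0039 after median-of-ratios scaling, which puts the median gene of each library on a common level. Small falls of about that size therefore change with the scaling. Libraries of the same group correlated at 0.984 to 0.986 (Pearson, log2 values, over genes), and libraries of different groups at 0.952 to 0.955. Of 13 urothelial and epithelial markers 10 had a mean of at least 1 TPM, among them EPCAM, KRT5 and UPK1B, while UPK3A was listed at 0 in all libraries and TP63 and UPK1A lay at or near 0. KRT5, KRT8, KRT18, KRT19, GATA3 and UPK1B had higher ranges with DCBQ, KRT7 had a lower one, and EPCAM, CDH1 and UPK2 overlapped. UPK1B had 18.2 to 21.8 TPM in control and 77.5 to 88.1 TPM with DCBQ. KRT7 had 1511 to 1553 TPM in control and 1317 to 1409 TPM with DCBQ. The part of these shifts in the ABC results was not tested.

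The rows of 3 members cannot be read as expression without a caution. ABCF1 lies in the major histocompatibility region of chromosome 6, and its 6 nearest protein-coding genes had means of at most 0.095 TPM, with PRR3, MRPS18B and ATAT1 at 0 in every library although most human cells use them. ABCC1 and ABCC6 lie side by side on chromosome 16, where of the nearest genes MYH11 had a mean of 0.0065 TPM, NDE1 of 0.020 TPM and NOMO3 of 0.35 TPM, while NPIPA7 had 2.32 TPM and CEP20 3.42 TPM, close to the 3.59 TPM of ABCC1. How the authors treated multi-mapped reads and alternative sequences of these regions is not given in the sources used here, and the part this plays was not tested. No direction is drawn for ABCF1, ABCC1 or ABCC6.

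Of the 43 genes, 37 were above 0 in at least 1 library and 24 had a mean of at least 1 TPM, the minimum for testing. By limma with p-values adjusted by Benjamini-Hochberg across the 16734 tested genes (calls at an adjusted p under 0.05), 4 of the 24 rose with DCBQ (ABCA4, ABCB9, ABCG2 and ABCD3), 13 fell and 7 did not pass. The called share was 70.8%, beside a background of 52.9% of all tested genes and 60.7% of the protein-coding ones. By direction, 13.4% of all tested genes rose and 39.5% fell (15.4% and 45.3% of protein-coding ones), against 16.7% and 54.2% of the ABC genes. For 17 of the 24 ABC genes every library of a group lay on the same side of the other group, beside 61.2% of all tested genes and 68.7% of protein-coding ones. The median ABC gene differed by -0.31, beside -0.21 over all tested genes. These shares are not far from the background, so the family is described gene by gene rather than as a unit.

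After median-of-ratios scaling 13 ABC genes were called, 6 higher and 7 lower, beside 46.9% of all tested genes (23.9% higher and 23.1% lower). The falls that kept their call were those of ABCA1, ABCA2, ABCA3, ABCA5, ABCC3, ABCG1 and ABCG4, with log2 differences from -1.25 (ABCA3) to -0.38 (ABCA2). The calls of ABCA7, ABCB10, ABCC10, ABCD4, ABCE1 and ABCF2 were lost, and ABCB8 and ABCC5 were called higher. Quantile normalization also gave 6 higher and 7 lower (background 46.5% of all tested genes, 22.8% higher and 23.7% lower), and leaving out mitochondrially encoded genes gave 5 higher and 9 lower (background 47.7%, 18.2% higher and 29.5% lower). Among these genes only ABCA4 rose by at least 1 in log2(TPM + 1), beside 1.96% of all tested genes, and only ABCA3 fell by as much, beside 5.45%. The pseudocount matters here, since by the ratio of means without it ABCG1, ABCA1 and ABCG4 fell 2.73-fold, 2.32-fold and 2.07-fold. The plot of differences shows the rises and falls of every tested member with both scalings.

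**Figure D1:**
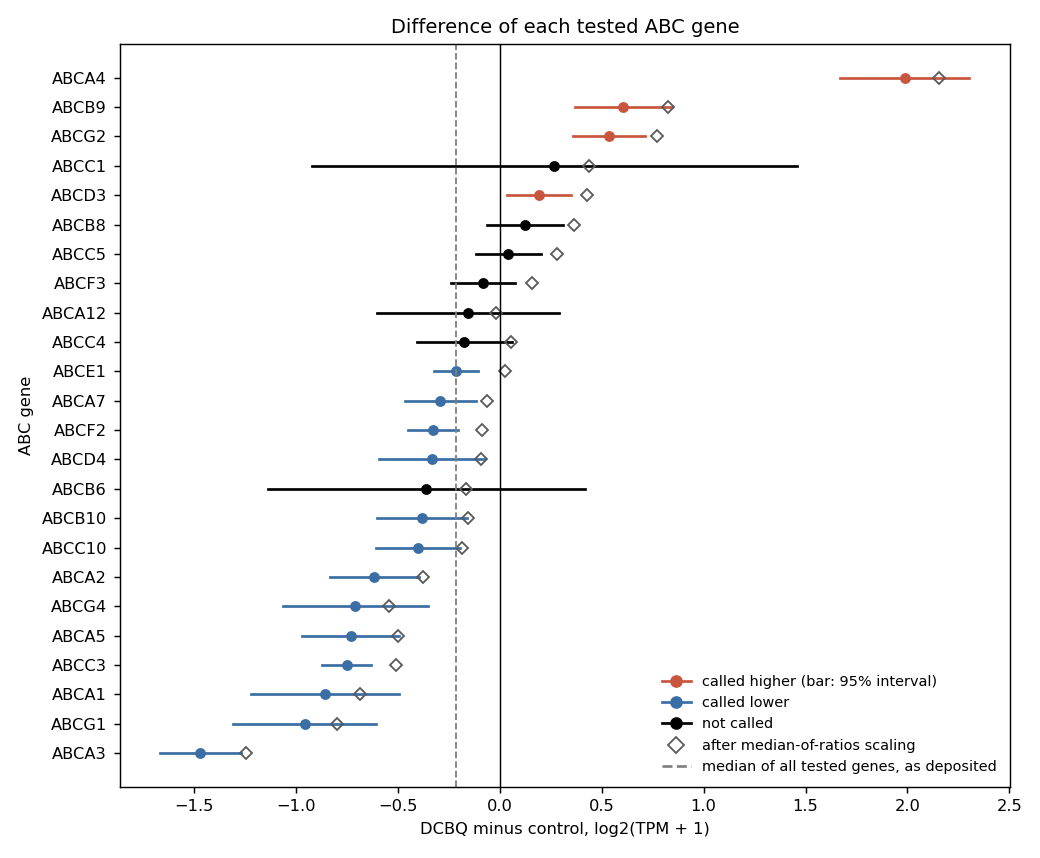
Difference of each of the 24 tested ABC genes, DCBQ minus control on log2(TPM + 1), with the 95% interval of the limma fit (3 libraries a group). Filled points are values as deposited and open diamonds are values after median-of-ratios scaling, which lie to the right of the filled points by about the median shift of all genes (dashed line, -0.21).

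The sterol exporters ABCA1, ABCG1 and ABCG4 all fell. ABCA1, which loads cholesterol and phospholipid onto apolipoprotein A-I, was 3.74, 4.09 and 3.27 TPM in the control libraries and 1.35, 1.63 and 1.80 TPM with DCBQ. Every DCBQ library lay below every control library, 2.32-fold by the means (log2 difference -0.86, SE 0.16, limma adjusted p = 0.0022). ABCG1, which passes cholesterol on to lipoprotein particles, was 3.17, 3.28 and 3.28 TPM in control and 1.06, 1.18 and 1.33 TPM with DCBQ. The control libraries of ABCG1 spanned a narrow range and the DCBQ libraries lay 2.73-fold lower (log2 difference -0.96, SE 0.15, limma adjusted p = 0.0011). Its close relative ABCG4, known mainly from brain, was 3.01, 3.05 and 2.88 TPM in control and 1.61, 1.24 and 1.47 TPM with DCBQ. The groups were again apart, with ABCG4 2.07-fold lower (log2 difference -0.71, limma adjusted p = 0.0052). These 3 genes were low in both groups, at about 1 to 4 TPM, where a pseudocount of 1 makes the log2 difference smaller than the ratio of means.

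The lipid pumps ABCA2, ABCA3 and ABCA5, which work on intracellular compartments, were more abundant and fell as well. ABCA3, which loads phospholipid into the lamellar bodies of lung alveolar cells, had 19.98, 19.5 and 18.6 TPM in control and 6.64, 6.02 and 6.44 TPM with DCBQ. Of the tested members that fell, it had the largest ratio of means, 3.04-fold (log2 difference -1.47, SE 0.085, limma adjusted p = 5.8e-06), and it ranked 266 among 16734 genes ordered from the largest fall. ABCA5, an endosomal and lysosomal protein linked to cholesterol, had 30.8, 30.2 and 24.6 TPM in control and 15.3, 17.9 and 16.96 TPM with DCBQ. Control library 3 was the lowest control and still above all DCBQ libraries, and ABCA5 fell 1.70-fold (log2 difference -0.73, SE 0.10, limma adjusted p = 0.00055). ABCA2, an endolysosomal lipid pump best known from myelin-forming cells, had 45.8, 41.4 and 40.0 TPM in control and 24.2, 30.9 and 27.2 TPM with DCBQ. It was the most abundant ABCA gene in both groups and fell 1.55-fold with no overlap (log2 difference -0.61, limma adjusted p = 0.00093).

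ABCA7, a phospholipid pump linked to phagocytosis, lay between 18.7 and 21.1 TPM in control and between 15.8 and 16.6 TPM with DCBQ. Its fall of 0.29 (log2 scale) passed in the deposited TPM (limma adjusted p = 0.012) but was 0.06 after median-of-ratios scaling, with an adjusted p of 0.52. ABCA12, which loads lipid into the lamellar granules of keratinocytes, had 1.12 to 1.92 TPM in control and 1.10 to 1.33 TPM with DCBQ and was not called. The other 5 ABCA genes were below the minimum, with ABCA9 at 0 throughout and ABCA6, ABCA8 and ABCA13 at most 0.054 TPM. ABCA10, which overlaps ABCA5, had 0.21 to 0.51 TPM in control and 0.048 to 0.11 TPM with DCBQ, below the minimum for testing.

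Against these 5 falls, 1 ABCA gene rose. ABCA4, which clears retinal conjugated to phosphatidylethanolamine in photoreceptors, had 1.13, 1.22 and 1.17 TPM in control and 7.21, 8.58 and 7.09 TPM with DCBQ. The lowest DCBQ library was far above the highest control library, and the means differed 6.51-fold (log2 difference 1.99, SE 0.14, limma adjusted p = 1.5e-05). The rise was the largest of the ABC genes reported and ranked 30 among all 16734 tested genes. On chromosome 1 ABCA4 lies 83379 bases from GCLM, which encodes a subunit of the enzyme that starts glutathione synthesis and was 25.7 TPM in control and 24.9 TPM with DCBQ on average, not called. The plot by library shows ABCA4 moving from among the lowest tested members to above ABCA3.

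**Figure D2:**
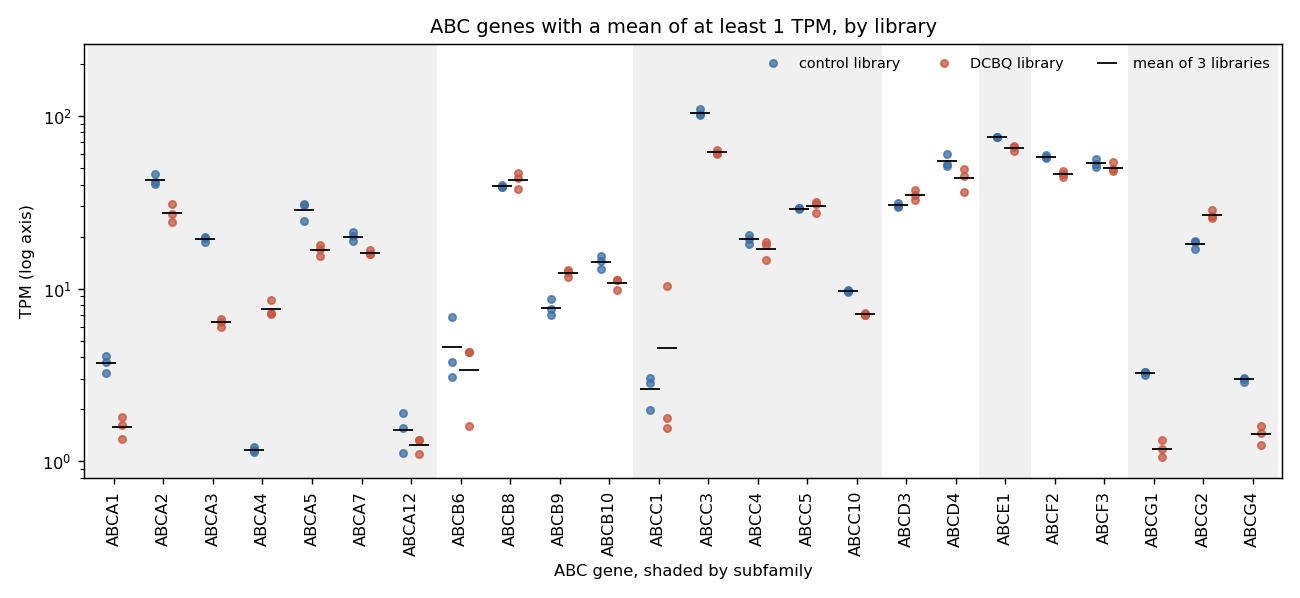
TPM of the 24 tested ABC genes in each library on a log axis, with control libraries in blue, DCBQ libraries in red and the mean of 3 libraries as a bar; subfamilies are shaded in turn. ABCC3 was the most abundant member in control at 100.5 to 109.5 TPM, ABCE1 the most abundant with DCBQ, and in ABCC1 a single DCBQ library stands at 10.3 TPM.

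Promoter sequence is shown for the 3 members with the largest falls among those with a RefSeq entry (GRCh38.p14) whose first transcribed bases lie in a GENCODE 29 transcript, all of them lipid pumps of subfamily ABCA. Each sequence is the part of the 250 bases before the RefSeq start that also lies before the GENCODE start, written 5′ to 3′ on the gene's own strand, which is the minus strand for all 3. Capitals mark matches on either strand to the motifs searched.
ABCA3, chr16:2340747-2340978: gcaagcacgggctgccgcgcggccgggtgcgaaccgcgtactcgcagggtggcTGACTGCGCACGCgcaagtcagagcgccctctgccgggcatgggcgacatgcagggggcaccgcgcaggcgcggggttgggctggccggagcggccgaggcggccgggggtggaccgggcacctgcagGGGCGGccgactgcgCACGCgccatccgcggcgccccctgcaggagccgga
ABCA1, chr9:104928238-104928405: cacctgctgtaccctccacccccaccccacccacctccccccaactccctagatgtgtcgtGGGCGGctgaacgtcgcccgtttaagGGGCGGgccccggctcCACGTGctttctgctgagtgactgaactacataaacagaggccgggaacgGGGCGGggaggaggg
ABCA5, chr17:69327245-69327383: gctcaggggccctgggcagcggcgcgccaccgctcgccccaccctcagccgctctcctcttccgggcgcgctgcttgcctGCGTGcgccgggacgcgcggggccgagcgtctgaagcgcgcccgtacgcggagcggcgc
The motifs were TGACNNNGC (the core of the antioxidant response element), GCGTG (the core of the xenobiotic response element), TGATGNAA (the ATF4 and CEBP composite site), GGGCGG (the SP1 GC box) and CACGTG (the palindromic E-box). The ABCA3 stretch held 1 match to TGACNNNGC, 2 to GCGTG and 1 to GGGCGG, and its first capital run is a match to TGACNNNGC that overlaps a match to GCGTG on the other strand. The ABCA1 stretch held 3 matches to GGGCGG and 1 to CACGTG. The ABCA5 stretch held 1 match to GCGTG.

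Over the full 250 bases, 20 of the 24 tested members had an entry. TGACNNNGC was found in 5 of these 20 (ABCA2, ABCA3, ABCB6, ABCC4 and ABCD4), beside 11.03% of all 27305 promoters and 12.2% of those of tested genes. GCGTG was found in 11, beside 31.9% and 45.1%, and GGGCGG in 15, beside 42.3% and 67.6%. CACGTG was found in 2, beside 6.49% and 8.88%, and TGATGNAA in 0, beside 3.19% and 1.341%. The median GC content was 65.8% for the tested members and 65.2% for all tested genes with an entry. Matches are descriptions of letters and not of bound factors. The tested members without an entry were ABCA4, ABCC1, ABCC3 and ABCG1.

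Among the conjugate exporters the pump with the highest level, ABCC3, fell under both scalings. ABCC3, which exports glucuronide and other conjugates across the basolateral membrane, had 100.5, 102.7 and 109.5 TPM in control and 61.0, 63.5 and 60.1 TPM with DCBQ. All DCBQ libraries were well below all control libraries, 1.69-fold by the means (log2 difference -0.75, SE 0.052, limma adjusted p = 1.4e-05), and the difference was -0.51 after median-of-ratios scaling (adjusted p = 0.00018). ABCC5, which exports cyclic nucleotides and other organic anions, had 29.1, 29.1 and 28.7 TPM in control and 27.5, 31.5 and 30.7 TPM with DCBQ. The groups overlapped and the difference was 0.04 (95% interval -0.12 to 0.20, limma adjusted p = 0.63), but after median-of-ratios scaling it was 0.28 with an adjusted p of 0.0042. The ratio of ABCC3 to ABCC5, which no scaling of whole libraries can change, was 3.46, 3.53 and 3.82 in control and 2.22, 2.02 and 1.96 with DCBQ. The ratio was lower in every DCBQ library, which shows that these genes changed unequally.

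ABCC4, which exports cyclic nucleotides, urate and conjugates, had 20.4, 19.3 and 18.2 TPM in control and 14.7, 18.6 and 17.9 TPM with DCBQ. Its groups overlapped, with DCBQ library 1 the lowest (log2 difference -0.17, 95% interval -0.41 to 0.06, limma adjusted p = 0.18). ABCC10, a lysosomal and plasma membrane pump for lipophilic anions and drugs, had 9.83, 9.69 and 9.60 TPM in control and 7.04, 7.25 and 7.04 TPM with DCBQ. The groups were apart (log2 difference -0.40, SE 0.090, limma adjusted p = 0.0060), but after median-of-ratios scaling the difference was -0.18 with an adjusted p of 0.11. ABCC10 overlaps DLK2 on the opposite strand, which had 16.0, 14.2 and 17.3 TPM in control and 10.7, 11.7 and 10.3 TPM with DCBQ. Whether strand was used in counting is not given in the sources used here, and the part of DLK2 in the ABCC10 values was not tested. The row of ABCC1, the best known glutathione-conjugate exporter, had 3.03, 1.98 and 2.85 TPM in control and 1.79, 10.3 and 1.55 TPM with DCBQ. Only DCBQ library 2 stood above the rest, and without it the difference changed from 0.27 to -0.43.

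In all, 0 of the 5 tested ABCC genes rose and 2 fell in the deposited TPM, and 1 rose and 1 fell after median-of-ratios scaling. The 40% that fell is close to the background of 39.5% of all tested genes, and after scaling the counts are likewise near the background of 23.9% higher and 23.1% lower. Of the 6 ABCC genes below the minimum, ABCC2, the apical conjugate exporter of liver and kidney, had 0.18 to 0.35 TPM in control and 0.19 to 0.51 TPM with DCBQ. ABCC11 and ABCC12 were at most 0.29 TPM, ABCC6 at most 0.069 TPM, and ABCC9 was at 0 in all libraries. ABCC8, the sulfonylurea receptor, had 0.72, 1.29 and 1.30 TPM in control and 0.46, 0.29 and 0.32 TPM with DCBQ. Its groups did not overlap, and with no minimum its difference was -0.62 (limma adjusted p = 0.045). ABCC8 is a regulatory subunit of a potassium channel whose pore, KCNJ11, lies 3167 bases away on chromosome 11. KCNJ11 had 3.33 TPM ± 0.36 (SD, n = 3) in control and 0.446 TPM ± 0.22 (SD, n = 3) with DCBQ, and fell 7.47-fold (log2 difference -1.59, limma adjusted p = 0.00026).

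Summed over its members, ABCC had 166 TPM ± 3.5 (SD, n = 3) in control and 121 TPM ± 9.7 (SD, n = 3) with DCBQ, the largest mean sum in both groups of the 5 subfamilies reported in full. ABCC3 gave 61.2% to 64.3% of the ABCC sum in control and 48.2% to 53.9% with DCBQ. The sum includes the doubtful row of ABCC1, at 10.3 TPM in DCBQ library 2. That library had the 48.2% share and the highest ABCC sum of the DCBQ libraries. The ABCA sum was 117 TPM ± 6.6 (SD, n = 3) in control and 77.3 TPM ± 5.7 (SD, n = 3) with DCBQ, and the sum over all 43 genes was 646 TPM ± 8.3 and 537 TPM ± 21. The ABCG sum was higher with DCBQ, at 29.5 TPM against 24.4 TPM. Most of it was ABCG2, with means of 26.8 TPM with DCBQ and 18.2 TPM in control, while ABCG1 and ABCG4 fell. All sums are of deposited TPM, in which the median tested gene differed by -0.21 on log2(TPM + 1), and they were not recomputed after scaling. After median-of-ratios scaling no ABCE or ABCF gene was called lower. These sums are descriptions and were not tested.

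**Figure D3:**
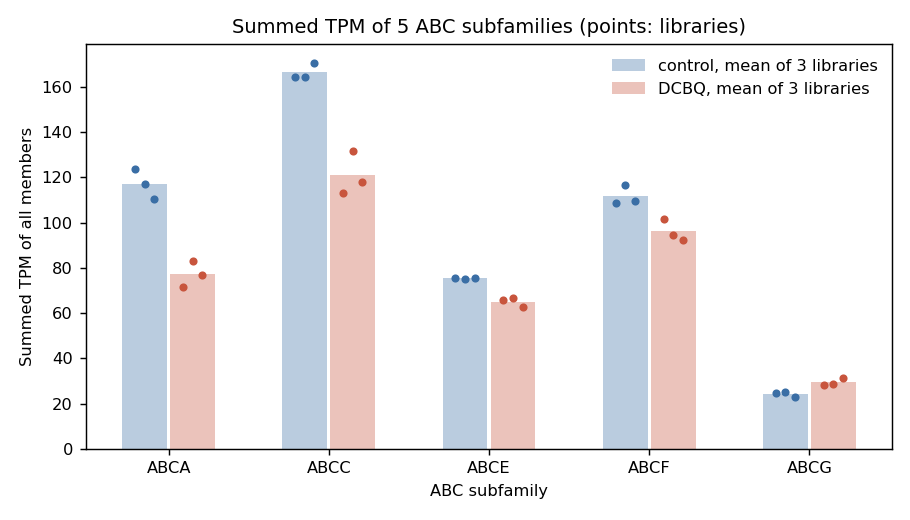
Summed TPM of the 5 ABC subfamilies reported in full, with bars for the mean of 3 libraries of a group and points for single libraries. In the deposited TPM the ABCA, ABCC, ABCE and ABCF sums were lower in every DCBQ library than in any control library. The ABCG sum was higher in every DCBQ library, with ABCG2 higher and ABCG1 and ABCG4 lower. The median tested gene differed by -0.21 on log2(TPM + 1) in these values. After median-of-ratios scaling no ABCE or ABCF gene was called lower.

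The multidrug pumps of the other subfamilies differed in level and direction. ABCG2, the breast cancer resistance protein, which exports urate, drugs and sulfate conjugates, had 18.6, 18.9 and 16.9 TPM in control and 25.7, 26.2 and 28.5 TPM with DCBQ. Each DCBQ library exceeded each control library, and ABCG2 rose 1.48-fold (log2 difference 0.54, SE 0.076, limma adjusted p = 0.00058). The rise was 0.77 after median-of-ratios scaling, so ABCG2 and ABCC3 moved in opposite directions under both scalings. ABCB1, the multidrug P-glycoprotein, had only 0.33 to 0.76 TPM in control and 0.41 to 0.86 TPM with DCBQ, below the minimum and with overlapping groups. ABCB4, which moves phosphatidylcholine into bile, was at most 0.10 TPM, and ABCB5 and ABCB11, the bile salt export pump, were at 0. The paired sterol pumps ABCG5 and ABCG8 were at 0 and at most 0.061 TPM.

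ABCB9, a half-transporter that carries peptides into lysosomes, had 7.59, 8.65 and 7.03 TPM in control and 11.6, 12.4 and 12.9 TPM with DCBQ. The groups did not overlap, and ABCB9 rose 1.59-fold (log2 difference 0.61, SE 0.10, limma adjusted p = 0.0015). It overlaps ARL6IP4 and OGFOD2 on the opposite strand, so without knowledge of strand its reads cannot be told apart from theirs. ARL6IP4 was lower with DCBQ, at 65.7 to 119 TPM against 141 to 144 TPM. TAP1 and TAP2, the related peptide pump of the endoplasmic reticulum, carry symbols outside the rule, lie in the same chromosome 6 region as ABCF1 and were listed at 0 and at most 0.078 TPM, and CFTR, the ABC chloride channel, was at most 0.032 TPM.

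For the mitochondrial ABCB proteins the calls depended on scaling. ABCB10, linked to haem synthesis, had 13.0 to 15.3 TPM in control and 9.82 to 11.2 TPM with DCBQ, a fall of 0.38 on the log2 scale (limma adjusted p = 0.011) that was 0.15 after median-of-ratios scaling, with an adjusted p of 0.22. ABCB8, an inner membrane protein linked to iron export, had 39.9, 38.5 and 38.6 TPM in control and 37.8, 46.6 and 43.8 TPM with DCBQ. Its control libraries lay inside the range of the DCBQ libraries (log2 difference 0.12, limma adjusted p = 0.23), while after median-of-ratios scaling the difference was 0.36 with an adjusted p of 0.0023. ABCB6, a porphyrin transporter, had 3.08 to 6.89 TPM in control and 1.59 to 4.32 TPM with DCBQ and was not called. A protein-coding gene on the same strand overlaps ABCB6, and the pair together had 9.47 to 13.8 TPM in control and 8.36 to 9.68 TPM with DCBQ.

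ABCD3, which imports branched-chain and bile acid precursors, had 30.1, 29.8 and 31.1 TPM in control and 34.8, 37.4 and 32.4 TPM with DCBQ. The groups were apart by a small step (log2 difference 0.19, limma adjusted p = 0.043), and the call was lost in 8 of 16 alternatives while median-of-ratios scaling gave 0.43 (adjusted p = 0.0012). ABCD4, which moves cobalamin out of lysosomes, had 60.3, 52.4 and 51.3 TPM in control and 36.4, 44.5 and 49.2 TPM with DCBQ. The DCBQ libraries were spread out below the control libraries, and the fall of 0.33 (limma adjusted p = 0.036) was lost in 10 of 16 alternatives. ABCD2 was at 0 in all libraries.

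The ABC proteins that act on ribosomes were among the most abundant members. ABCE1, which splits ribosomes after termination, had 75.7, 74.9 and 75.6 TPM in control and 65.8, 66.5 and 62.6 TPM with DCBQ. The groups were apart with little spread (log2 difference -0.21, SE 0.047, limma adjusted p = 0.0057), but the fall equals the median shift of all genes and was 0.03 in the other direction after median-of-ratios scaling. ABCE1 overlaps OTUD4 (39.0 to 42.8 TPM in control, 20.4 to 27.8 TPM with DCBQ) on the opposite strand. ANAPC10 overlaps it there too (18.6 to 22.8 TPM in control, 12.1 to 16.5 TPM with DCBQ), and the part of both was not tested. ABCF2 had 58.0, 59.4 and 56.7 TPM in control and 47.9, 45.7 and 44.5 TPM with DCBQ. Its groups were apart (log2 difference -0.33, limma adjusted p = 0.0012) and the difference was -0.09 after median-of-ratios scaling, with an adjusted p of 0.28. ABCF3 had 50.3, 56.5 and 52.6 TPM in control and 53.7, 49.0 and 47.8 TPM with DCBQ, overlapping and not called.

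Genes that work with these pumps were counted in the same fit, from lists named by function. Each list is read against all tested genes, of which 13.4% rose and 39.5% fell in the deposited TPM and 23.9% rose and 23.1% fell after median-of-ratios scaling. The lists name genes that encode proteins, and of protein-coding tested genes 15.4% rose and 45.3% fell in the deposited TPM. That background lies closer to the lists with many falls and farther from those with few. Of 24 tested conjugation enzymes 11 rose and 5 fell (median 0.17), which is 45.8% higher beside 13.4% of all tested genes and 20.8% lower beside 39.5%. After median-of-ratios scaling 14 rose and 4 fell (58.3% beside 23.9%, and 16.7% beside 23.1%). GSTP1, the main glutathione transferase of these cells by TPM, rose 1.72-fold from 810 TPM ± 30 (SD, n = 3) and MGST2, a microsomal glutathione transferase, rose 2.68-fold. GSTM4, a cytosolic glutathione transferase, fell 2.85-fold and GGT7, of the gamma-glutamyltransferase family, fell 2.37-fold. Of 14 tested genes of glutathione synthesis and reduction 9 fell and 1 rose (median -0.52), which is 64.3% lower beside 39.5% of all tested genes, and after median-of-ratios scaling 7 fell and 3 rose (50% lower beside 23.1%). SLC7A11, the cystine importer, fell 15.5-fold, its partner SLC3A2 fell 2.49-fold and CTH, which makes cysteine from cystathionine, fell 3.40-fold. CHAC1 fell 33.2-fold and encodes an enzyme that degrades glutathione, so it acts against the list's name. GPX1 and GPX4, peroxidases that use up reduced glutathione, were also among the 9. GPX1 fell 1.74-fold and GPX4 1.28-fold, the latter in the deposited TPM only. GGCT and CHAC2, of glutathione breakdown, were not called in the deposited TPM. The shares are therefore those of the whole list and not of genes that make or reduce glutathione. The enzymes that make or reduce glutathione were mixed. GSS fell under both scalings (log2 difference -0.68, and -0.44 after median-of-ratios scaling). GCLC fell in the deposited TPM only (-0.32, and -0.093 after that scaling), and GCLM was not called. GSR, which reduces oxidised glutathione, rose under both (0.25 and 0.49). Of 8 tested uptake carriers of organic anions and drugs 4 fell and 0 rose (median -0.32), and 3 fell and 2 rose after median-of-ratios scaling. With 8 genes these shares are near the background, 50% lower beside 39.5% and, after scaling, 37.5% beside 23.1%. The 4 were SLCO4A1, SLC22A18, SLC22A4 and SLC22A3, 1.343-fold to 2.22-fold lower.

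Of 15 tested genes, transcription factors known to act on ABC genes in other cells and the NFE2L2 inhibitor KEAP1, 8 fell and 2 rose. The median was -0.18, and 5 fell and 4 rose after median-of-ratios scaling. These counts and the median are near those of all tested genes, 53.3% lower beside 39.5% and 13.3% higher beside 13.4%. NFE2L2, the regulator of antioxidant genes, fell 1.67-fold, PPARA, a fatty acid receptor, 1.98-fold, SREBF1, a regulator of lipid synthesis, 1.67-fold and HIF1A, the hypoxia factor, 1.61-fold. Of the receptors for oxysterols that act on ABCA1 and ABCG1, NR1H2 had 54.7 to 61.4 TPM in control and 44.2 to 49.4 TPM with DCBQ and NR1H3 had 16.5 to 18.5 TPM and 15.2 to 19.5 TPM. Of 16 tested sterol and lipoprotein genes 4 rose and 5 fell (median -0.05), 25% higher beside 13.4% of all tested genes and 31.2% lower beside 39.5%. After median-of-ratios scaling 8 rose and 3 fell (50% beside 23.9%, and 18.8% beside 23.1%). SCARB1, a receptor for high-density lipoprotein, rose 1.42-fold, while the endosomal cholesterol genes NPC1 and STARD3 fell 1.51-fold and 1.336-fold and STARD4, a cytosolic sterol carrier, fell 1.38-fold. Of 26 tested peroxisomal genes 6 rose and 1 fell (median 0.02), 23.1% higher beside 13.4% of all tested genes and 3.85% lower beside 39.5%. After median-of-ratios scaling 10 rose and 1 fell (38.5% beside 23.9%, and 3.85% beside 23.1%). SCP2 and ACAA1, which cleave oxidised acyl-CoAs in peroxisomes, rose 1.36-fold and 1.38-fold, ACOX3, a peroxisomal acyl-CoA oxidase, rose 1.51-fold and PEX10, an import factor, fell 1.53-fold.

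For iron-sulfur and haem genes the direction depended on scaling, as it did for all tested genes. Of 27 tested, 13 fell and 1 rose (median -0.17), but 4 fell and 6 rose after median-of-ratios scaling (median 0.07). The shares are 48.1% lower beside 39.5% of all tested genes and, after scaling, 22.2% higher beside 23.9%. HSPA9, the mitochondrial chaperone for cluster transfer, fell 1.90-fold and FDX2, a ferredoxin, 2.16-fold, and SLC25A37, the mitochondrial iron importer, and ALAS1, which starts haem synthesis, fell 1.39-fold and 1.32-fold. Of 23 tested translation partners of ABCE1 and ABCF 15 fell and 1 rose (median -0.35), 65.2% lower beside 39.5% of all tested genes, and after median-of-ratios scaling 10 fell and 3 rose (43.5% lower beside 23.1%). ZNF598, which marks collided ribosomes, fell 2.73-fold, and the initiation factors EIF1, EIF2S2 and EIF5 fell 2.50-fold, 2.14-fold and 1.70-fold. Of 9 tested peptide loading genes 4 fell and 2 rose (median -0.14), and 3 fell and 3 rose after median-of-ratios scaling. With 9 genes these shares are near the background, 44.4% lower beside 39.5% and 22.2% higher beside 13.4%. The chaperones CANX, CALR and PDIA3 fell 2.58-fold, 2.16-fold and 1.98-fold and ERAP2, a peptide-trimming enzyme, rose 2.36-fold.

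**Figure D4:**
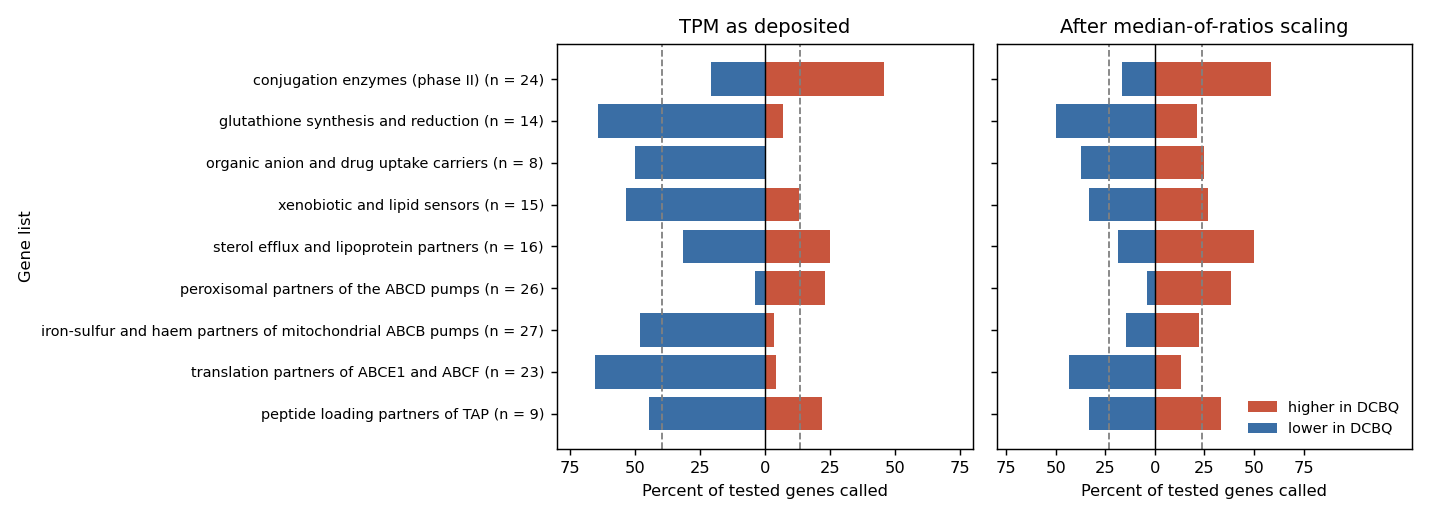
Percent of the tested genes of each functional list called higher (red, to the right) or lower (blue, to the left) with DCBQ, for the deposited TPM (left) and for TPM scaled by median of ratios (right); n is the number tested and dashed lines mark the share of all tested genes called in that direction. The lists of conjugation enzymes and of glutathione synthesis and reduction lie mainly on opposite sides in both panels, and the iron-sulfur list changes side. The glutathione list also holds genes that use up or degrade glutathione.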

How the data were processed

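RNA from 6 libraries of SV-HUC-1 cells (3 control, 3 DCBQ, 3 days) was measured. The authors deposited 1 table of TPM with 60624 Ensembl identifiers and a column for each library, all used. The genome build hg38, HISAT2 2.2.1, StringTie 2.1.7, Trimmomatic 0.38, FastQC and DESeq2 1.34.0 are named, per the submitters' processing notes. The annotation, strand use and treatment of multi-mapped reads are stated nowhere in those sources. Columns sum to 1000000, so the depth is unknown and no interval from counting is given.

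Symbols came from an Ensembl table and, failing that, from GENCODE 29, which also gave gene types and coordinates (GRCh38, 1-based). Genes with a mean of at least 1 TPM entered a two-sided limma fit (version 3.58.1, eBayes with a trend, R 4.3.3) of log2(TPM + 1). P-values were adjusted by Benjamini-Hochberg across the 16734 genes, with calls under 0.05. The pseudocount makes the change of low genes look smaller, and fold values are ratios of mean TPM without it. Tables were made with Python 3.11.15 and pandas 2.3.3. Promoters came from RefSeq (GRCh38.p14), and 35 of the 43 reported members matched an entry by symbol. In all, 2 members and 2 list genes are not reported here, and counts of members and lists, medians, sums and plots leave them out, while the fit holds every gene.

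Named genes were every tested member, with values by library for calls of at least 0.5, for ABCC and for means of at least 20 TPM, and up to 4 called genes of smallest p of each list. NR1H2, NR1H3, GCLM, GCLC, GSS, GSR, ARL6IP4, DLK2, OTUD4, ANAPC10 and the neighbours of ABCF1 and ABCC1 were added after their values were seen. So were GPX1, GPX4, GGCT and CHAC2. The members and lists were chosen with earlier results of these data known, so they give no independent support for results already seen in them. Alternatives were pseudocounts of 0.1 and 5, no minimum, a minimum of 5 TPM, median-of-ratios, quantile and mitochondria-free scaling, other eBayes settings, the replicate block and each library left out. Tested on simulated data for this comparison (16734 genes), the fit recovered 26.9%, 74.6% and 93.9% of changes of 0.5, 1 and 2. Only 67, 67 and 66 genes had been given these changes, and there were 10 false calls. In the deposited TPM 52.9% of all tested genes were called, and recovery with so many changed genes was not tested.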

Additional observations from a re-analysis of the deposited data

How the results depend on the processing

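Of 377 values of single ABC genes under alternatives, 334 kept their direction and side of the threshold, 30 lost the call, 6 gained it and 7 changed sign. The calls of 10 members (ABCA1, ABCA2, ABCA3, ABCA4, ABCA5, ABCB9, ABCC3, ABCG1, ABCG2 and ABCG4) held in every alternative that tested them. Scaling changed most else. Under median-of-ratios and quantile normalization, lower ABC genes numbered 7 and 7 (13 as deposited), higher ABCC genes 1 and 1 (0), lower ABCC genes 1 and 1 (2), higher genes over all 3995 and 3814 (2247) and lower genes over all 3861 and 3966 (6610). Both scalings bring the libraries to a common centre. The sign turned for ABCF3 (0.16, 0.13 and, without mitochondrially encoded genes, 0.050), ABCC4 (0.058 and 0.10) and, under median-of-ratios scaling, ABCE1 (0.028). With single libraries left out ABCC1 ranged from -0.43 (without DCBQ replicate 2) to 0.65, and without DCBQ replicate 1, ABCB8 was called higher.

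With each library left out, 3 to 4 ABC genes were higher and 12 to 13 lower, and over all genes 1901 to 2138 were higher and 5700 to 6425 lower. Without ABCC1, ABCC6 and ABCF1, an alternative chosen after seeing the data, 4 were higher and 13 lower. ABCC1 was not called and ABCC6 and ABCF1 were not tested. Leaving them out could therefore not change these counts, which say nothing about the weight of the doubtful rows. Deviations of same-numbered libraries correlated little (r across genes -0.037, 0.045 and 0.046), beside -0.070 to 0.028 for libraries of different number. Values this small cannot show whether the numbers pair libraries, and the main fit used no pairing. With the replicate block 3 ABC genes were higher and 12 lower, the calls of ABCD3 and ABCD4 being lost. TPM keeps no depth, so what low rows could show is unknown.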

Other observations

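Rows with ABC-type symbols outside the rule, 15 in all, are mostly pseudogenes, antisense RNAs and read-through genes. ABCA11P, a transcribed pseudogene on chromosome 4, had 8.96, 9.44 and 9.29 TPM in the control libraries and 6.31, 5.86 and 3.76 TPM with DCBQ. It was lower in every DCBQ library (log2 difference -0.72, limma adjusted p = 0.0070). ABCA17P, which overlaps ABCA3 on the opposite strand, had 0.83, 0.60 and 0.52 TPM in control and 0.20, 0.21 and 0.14 TPM with DCBQ, lower alongside ABCA3. Reads of the overlapping stretch cannot be assigned to either gene without strand. ABCC6P1, a near copy of part of ABCC6, was at 0 in the control libraries and had 1.497, 0.11 and 0.84 TPM with DCBQ, while ABCC6 had 0.025 to 0.069 TPM in control and 0 with DCBQ.

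KCNJ8, the pore partner of ABCC9, was at 0 in all libraries, as was ABCC9. The alternative partner pair, ABCC8 and KCNJ11, was lower in every DCBQ library than in any control library. Markers of other cell types were mostly at or near 0, with COL1A2, COL3A1, DCN and LUM at 0 in every library. Of the 5 markers with a mean of at least 1 TPM, KDR was lower with DCBQ and the others had higher ranges. COL1A1 (fibroblast) had 6.17 to 7.27 TPM in control and 13.9 to 15.9 TPM with DCBQ. Of the endothelial markers CDH5 had 3.75 to 4.89 TPM in control and 8.05 to 14.2 TPM with DCBQ, while KDR had 2.48 to 2.77 TPM and 0.35 to 0.42 TPM, and PECAM1 was at most 0.049 TPM. CD14 (immune) had 0.75 to 1.27 TPM in control and 1.96 to 2.47 TPM with DCBQ, and SERPINA1 (hepatocyte) had 1.35 to 1.80 TPM and 1.76 to 2.45 TPM, with overlapping groups. The part of these in the ABC results was not tested.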
